A study of Sus scrofa with 6 samples.

Results

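Messenger RNA levels in the liver of a Korean native pig library were compared with those in a Berkshire pig library (Sus scrofa), over all 25322 Ensembl genes that the count files list. Both liver libraries of the series were taken by their breed and tissue labels. The series also holds fat and muscle, 6 libraries in all, 1 for each breed and tissue. Its title speaks of 3 pigs of each breed, and the labels do not say whether a library came from 1 pig or from several, or whether liver, fat and muscle came from the same pigs. Berkshire is a breed of British origin and the Korean native pig is an indigenous breed of Korea. Neither group carried a labelled treatment or engineered allele. Age, sex and feeding before slaughter are not given in the labels used here. With 1 library in each group the differences have no replicate check and were not tested. Every difference described here is a difference between these 2 libraries, and breed, animal and library cannot be told apart.

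The liver makes most plasma proteins, stores and releases glucose, builds and exports cholesterol and triglyceride, turns amino nitrogen into urea, makes bile acids and clears foreign compounds through oxidation and conjugation. Many of these tasks are set by transcription: the sterol sensor SREBP-2 drives the cholesterol synthesis genes when cell sterol is low, fasting and glucagon drive the gluconeogenic gene PCK1, interleukin-6 acting through STAT3 drives acute phase proteins such as CRP, and ligand sensors such as AHR drive cytochrome P450 genes. In whole tissue, fewer cells of a type and less RNA per cell cannot be told apart.

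Reads assigned to genes numbered 6339425 in the Berkshire and 7912093 in the Korean native liver library, within the range of 5897407 to 7912093 over all 6 libraries. Levels are given in CPM, read counts brought to 1 common library size after scaling by the trimmed mean of M-values (TMM), always in the order Berkshire, Korean native. A range after a fold is a 95% counting interval, which covers counting error and no difference between animals. ALB (albumin) took 13.9% and 16.2% of the counts, and the 13 genes encoded in the mitochondrion 13.1% and 17.5%. Both libraries bore the liver label out: 17 hepatocyte markers summed to 240494 and 274825 CPM, none differed by 2-fold, and their median log2 ratio was -0.04. Markers of fat cells (6 matched genes) summed to 55.0 and 52.4 CPM and those of skeletal muscle (9 matched genes) to 64.0 and 59.2 CPM.

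A gene entered the comparison with at least 10 CPM in 1 of the 2 liver libraries, which 8357 genes did and 16965 did not. Genes near this minimum could enter only through the library where they were higher. The median log2 ratio of Korean native over Berkshire was 0.00, and the quartiles were -0.34 and 0.35. At least 4-fold higher in the Korean native library were 121 genes (1.45%), and 121 (1.45%) were at least 4-fold lower. At 2-fold the counts were 492 higher (5.89%) and 472 lower (5.65%), and these shares are the background for each gene list described. For counts by any amount the background is 50.2% of all genes higher. The lists were drawn up with earlier results of these data known, so a list that stands out from this background was not chosen independently of it. Past 10-fold more genes were lower than higher: 54 genes were at least 10-fold lower and 37 at least 10-fold higher. Of the 242 genes past 4-fold in either direction (2.9%), 134 had a symbol: 76 higher (1.24% of the genes with a symbol) and 58 lower (0.95%). Close to the limit, CA3 (carbonic anhydrase 3) was 4.04-fold and ARHGEF38 4.08-fold higher, just inside, while FDPS at 3.96-fold and MEPCE at 3.90-fold were just outside. On the lower side NAALADL1 and SERPINA11, each at 4.07-fold, were inside, and STAT3 at 3.98-fold and IL4R at 3.97-fold were outside.

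**Figure D1:**
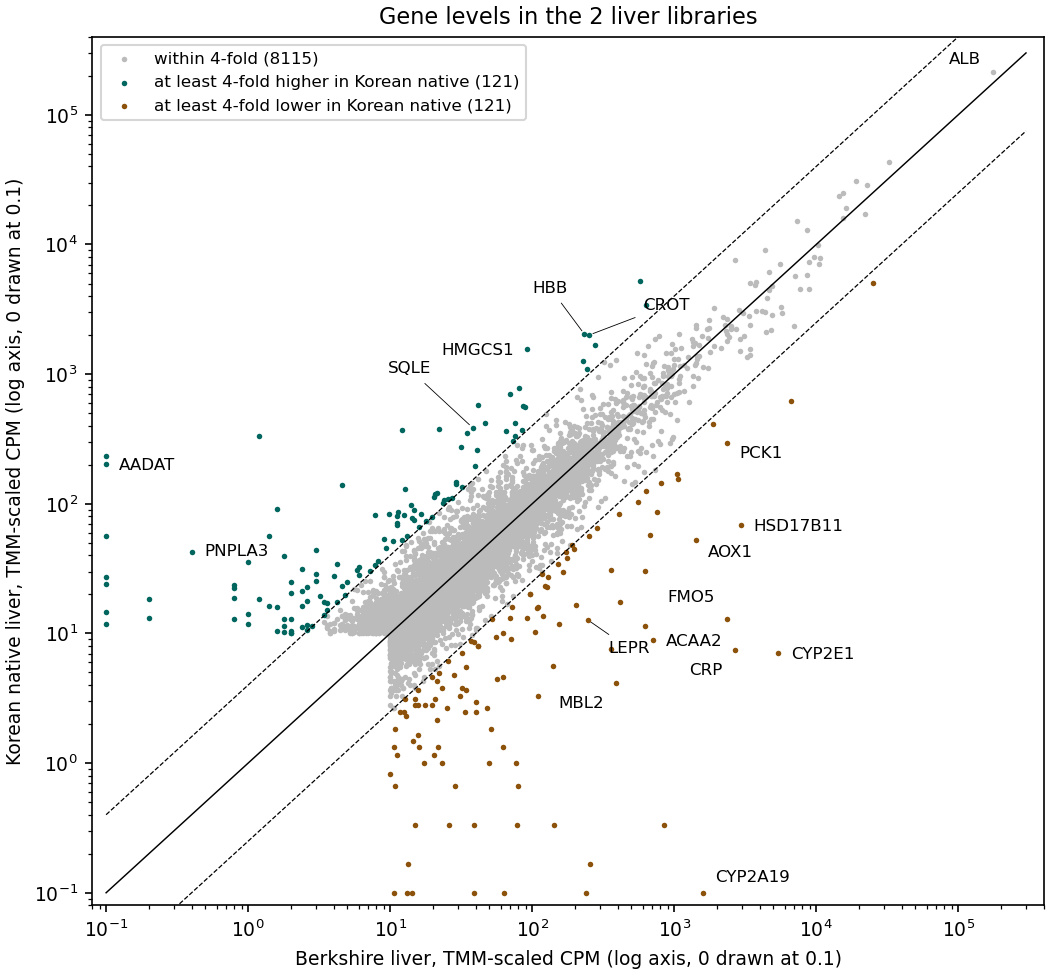
Each point is 1 of 8357 genes, placed by its CPM in Berkshire liver (x) and in Korean native liver (y), both on log axes with 0 counts drawn at 0.1, with a solid line at equal levels and dashed lines at 4-fold. The 121 higher genes include HMGCS1, SQLE and CROT, and the 121 lower genes include CYP2E1, CRP and FMO5 far below the line.

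Among lists with at least 5 measured genes, cholesterol synthesis had the highest median. Of 17 measured enzymes, 16 were higher in the Korean native library and 1 was lower, 11 were at least 2-fold and 5 at least 4-fold higher, none was 2-fold lower, and the median log2 ratio was 1.66, beside 0.00 over all genes. Their summed level was 2710 and 8614 CPM. HMGCS1 (ENSSSCG00000016872), which makes HMG-CoA, stood at 91.8 CPM in Berkshire and 1556 CPM in Korean native liver, and was 16.9-fold higher (15.4 to 18.7). ACAT2, which supplies acetoacetyl-CoA ahead of it, had 38.4 and 129 CPM. The enzymes matched in this list for steps from mevalonate to squalene were also higher. Of the list's 20 genes 17 were matched, so not every step is covered. Mevalonate kinase MVK had 126 and 397 CPM, IDI1 (isopentenyl diphosphate isomerase) 46.8 and 418 CPM, FDPS (farnesyl diphosphate synthase) 125 and 496 CPM and FDFT1 (squalene synthase) 69.4 and 697 CPM. SQLE, the squalene epoxidase that opens the sterol branch, stood at 38.0 and 387 CPM and was 10.2-fold higher (8.78 to 11.9). The later steps had smaller folds than SQLE. CYP51A1, MSMO1 and NSDHL, which strip methyl groups from lanosterol, were 2.87-fold, 3.87-fold and 2.53-fold higher, and LSS, TM7SF2, SC5D and HSD17B7 were 1.66-fold, 1.85-fold, 1.71-fold and 1.59-fold higher. DHCR7, which reduces 7-dehydrocholesterol to cholesterol, was nearly equal at 140.2 and 137 CPM.

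Regulators and handlers of sterol varied more. Their list also holds PNPLA3 and LPIN1, which are in the triglyceride and lipid droplet list too. Of its 16 genes, 5 were at least 2-fold higher, PNPLA3 among them, and none 2-fold lower. The median log2 ratio was 0.44. SREBF2, which encodes the sterol-sensing transcription factor, was 1.99-fold higher at 60.4 and 120.3 CPM, while its escort SCAP had 31.6 and 39.4 CPM. INSIG1, which retains the sensor in the endoplasmic reticulum, was 1.80-fold higher. SOAT2, which esterifies cholesterol for lipoproteins, was 4.30-fold higher (3.26 to 5.76) at 12.2 and 52.5 CPM, and SOAT1, the form of most other cells, was 1.52-fold lower at 22.2 and 14.6 CPM. NPC1, which moves cholesterol out of lysosomes, and ABCA1, which exports it to HDL, had 23.6 and 61.8 CPM and 29.4 and 88.3 CPM. Both these genes were past 2-fold. Outside the lists, and chosen after their values were seen, AACS (acetoacetyl-CoA synthetase, which feeds ketone bodies into sterol synthesis) had 40.8 and 260.3 CPM, and MMAB (a cobalamin adenosyltransferase that lies beside MVK) had 12.6 and 81.9 CPM. In fat 3 of 12 cholesterol synthesis genes were at least 2-fold higher and none lower, with a median log2 ratio of 0.72. In muscle 1 of 11 was, with a median of 0.24.

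**Figure D2:**
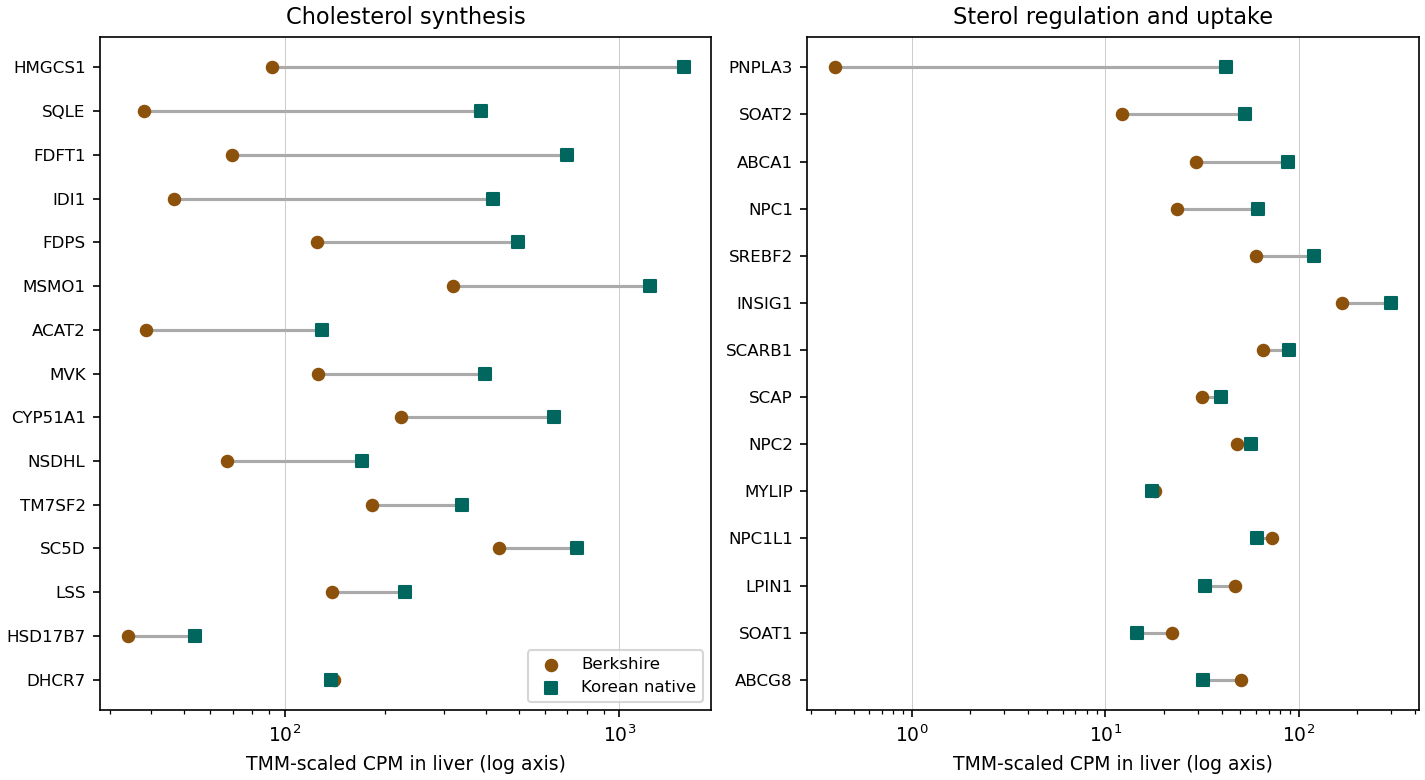
Left, 15 cholesterol synthesis genes and, right, 14 genes of the sterol regulation and uptake list (PNPLA3 and LPIN1 included), each with its CPM in Berkshire liver (circle) and Korean native liver (square) on a log axis. On the left the squares lie to the right of the circles for every enzyme drawn but DHCR7 at the bottom, which is nearly at the same level in both.

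Fatty acid and triglyceride genes differed in both directions. Of 15 fatty acid synthesis genes 3 were at least 2-fold higher and 3 at least 2-fold lower, with a median log2 ratio of 0.45. FASN (fatty acid synthase) had 226 and 535 CPM and SCD (stearoyl-CoA desaturase, which makes oleate) 546 and 1461 CPM. Both desaturases of the polyunsaturated pathway went the other way. FADS1 was 5.42-fold lower (4.97 to 5.93) at 555 and 102 CPM and FADS2 4.88-fold lower (4.42 to 5.39) at 409 and 83.8 CPM. These genes lie side by side and are related in sequence, so reads may be shared between them. ME1, which supplies NADPH for lipogenesis, had 16.0 and 6.63 CPM. PNPLA3 (ENSSSCG00000027266), a lipid droplet protein whose gene SREBP-1c and carbohydrate drive in human and mouse, had 2 counts in Berkshire and 255 in Korean native liver, 0.400 and 42.3 CPM. It was 106-fold higher (28.9 to 877), a wide interval set by the 2 counts. In fat its level was 7.15 and 28.8 CPM and in muscle 1.28 and 0.692 CPM.

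Of 16 triglyceride synthesis and lipid droplet genes 2 were at least 2-fold higher and 4 lower, with a median log2 ratio of -0.22. GPAM, the first step of glycerolipid synthesis, had 159 and 323 CPM, and DGAT1, a last step, 30.6 and 13.9 CPM. HSD17B11, a droplet-bound short-chain dehydrogenase, was 42.9-fold lower (38.9 to 47.4), at 2936 CPM in Berkshire and 68.4 CPM in Korean native liver. G0S2, which inhibits the triglyceride lipase ATGL, had 13.4 and 4.14 CPM, and ABHD5, which activates that lipase, 169.9 and 80.7 CPM. The inhibitor and the activator of lipolysis were therefore both lower.

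Among 26 fatty acid oxidation genes 3 were at least 4-fold higher and 1 at least 4-fold lower, with a median log2 ratio of 0.23. CROT, which hands peroxisomal acyl groups to carnitine, stood at 251 and 2000 CPM and was 7.95-fold higher (7.50 to 8.44). ACADL, a long-chain acyl-CoA dehydrogenase, had 85.8 and 568 CPM, and ACSL3, which activates fatty acids at the endoplasmic reticulum and droplets, 80.4 and 788 CPM. ACAA2, the mitochondrial thiolase of the last oxidation step, was 79.4-fold lower (60.7 to 106) at 711 CPM in Berkshire and 8.95 CPM in Korean native liver. In the other tissues ACAA2 did not show this gap: it had 96.9 and 118 CPM in fat and 49.4 and 85.6 CPM in muscle. Better known steps differed less, with CPT1A, the carnitine entry step, at 289 and 182 CPM and the dehydrogenase ACADM at 1076 and 2027 CPM. None of 6 ketone body genes was past 2-fold.

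Some genes that fasting and glucagon drive were lower. The list of gluconeogenesis and fasting genes also holds members that fasting does not drive. Of its 13 measured genes 5 were higher and 8 lower by any amount. None was 2-fold higher and 4 were at least 2-fold lower, with a median log2 ratio of -0.13. ANGPTL4, the member farthest on the higher side, had 89.6 and 133 CPM. PCK1 (ENSSSCG00000007507), the committed step from oxaloacetate towards glucose, was 7.96-fold lower (7.57 to 8.37) at 2339 and 294 CPM. IGFBP1, a secreted binder of insulin-like growth factors that insulin represses, was 4.39-fold lower (3.89 to 4.96) at 249 and 56.8 CPM. PDK4, which blocks pyruvate oxidation, had 327 and 109.9 CPM in liver, 1060 and 25.2 CPM in fat and 3496 and 8.07 CPM in muscle. INSR, the insulin receptor, had 34.4 and 12.4 CPM. PC (pyruvate carboxylase) and TAT (tyrosine aminotransferase) stood at 323 and 309 CPM and 1776 and 1481 CPM. The list medians in the other tissues were -0.67 in fat and -1.22 in muscle, beside medians over all genes of 0.02 and 0.08. Of 10 glucocorticoid response genes 5 were higher and 5 lower by any amount, with a median log2 ratio of 0.28. At 2-fold 1 was higher and 2 lower. SERPINA6, the plasma carrier of cortisol, had 186 and 394 CPM, KLF9 253 and 110.2 CPM and PER1 187 and 83.8 CPM. FKBP5, short of 2-fold, was higher at 119 and 205 CPM.

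Glucose use and glycogen genes held 5 of 26 at least 2-fold higher and 2 lower, with a median log2 ratio of 0.11. PFKFB3, which makes the activator of phosphofructokinase, was 14.6-fold higher (8.68 to 26.4) at 3.00 and 43.7 CPM, while it was lower in Korean native fat and muscle, at 43.1 and 23.2 CPM in fat and 42.6 and 12.7 CPM in muscle. PPP1R3B and PPP1R3C, which direct a phosphatase to glycogen, had 121 and 281 CPM and 65.0 and 177 CPM. UGP2, which makes UDP-glucose for glycogen, was lower at 987 and 325 CPM, and the liver glycogen synthase GYS2 had 618 and 466 CPM.

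Growth signalling genes differed in both directions, 2 of 11 at least 2-fold higher and 3 lower (median log2 -0.09). GHR, the growth hormone receptor, was 2.72-fold higher (2.51 to 2.96) at 148 and 402 CPM. IGF1, its main target in liver, was 4.35-fold higher (3.08 to 6.30) at 7.80 and 34.0 CPM. Besides IGFBP1, IGFBP4 was lower at 532 and 148 CPM. LEPR, the leptin receptor, was 19.2-fold lower (15.3 to 24.5) at 245 and 12.8 CPM. In human LEPR shares its promoter and first exons with LEPROT, so reads of an overlapping gene may not be separable.

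Amino acid breakdown genes mostly stayed near the Berkshire level, with 1 of 41 at least 2-fold higher, 5 lower and a median log2 ratio of -0.03. AADAT (ENSSSCG00000009708), which transaminates kynurenine and aminoadipate, had 0 counts in Berkshire and 1226 in Korean native liver, 0 and 203 CPM. Against a floor of 3 counts per library AADAT was 338-fold higher, with a counting interval from 275-fold upwards. Fat and muscle held at most 2 counts of it in a library. ACMSD, which steers kynurenine products away from NAD synthesis, had 23.0 and 0.994 CPM, and GPT2, the mitochondrial alanine transaminase, 155 and 11.8 CPM. These were 23.1-fold lower (10.3 to 64.4) and 13.2-fold lower (10.3 to 17.0). HAL (histidine ammonia-lyase) was 3.33-fold lower. Another kynurenine transaminase, KYAT1, named after its values were seen, was 28.3-fold lower (15.6 to 57.4) at 51.6 and 1.82 CPM. ETNPPL, which breaks down phosphoethanolamine, was 20.7-fold lower (17.8 to 24.1), and SLC13A5, the citrate importer of hepatocytes, 33.3-fold lower (21.3 to 54.9).

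In the urea cycle and ammonia list 2 of 15 genes were at least 2-fold higher and 1 lower. CPS1, which fixes ammonia in the first step, had 4333 and 3033 CPM, OTC 843 and 1163 CPM, ASS1 1718 and 1114 CPM and ARG1 1364 and 807 CPM, so no enzyme among these differed by 2-fold. The members past 2-fold were the glycine cleavage protein AMT at 19.2 and 54.8 CPM, the aspartate carrier SLC25A13 at 38.2 and 84.0 CPM and ARG2 at 45.2 and 21.7 CPM. Bile acid genes had 3 of 18 at least 2-fold higher and none lower (median log2 0.48). KLB, the co-receptor through which FGF19 from the gut represses bile acid synthesis, was 4.95-fold higher (3.68 to 6.78) at 10.4 and 51.5 CPM. The canalicular pumps ABCB11, which exports bile salts, and ABCC2, which exports conjugates, had 357 and 731 CPM and 183 and 415 CPM. CYP7A1, the rate-limiting enzyme of bile acid synthesis, stood at 339.9 and 452 CPM.

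Among genes with a symbol, the 2 largest folds belonged to cytochrome P450 genes, which oxidise foreign compounds. Of 14 measured cytochrome P450 and cytochrome b5 system genes, 3 were at least 4-fold lower and 1 at least 4-fold higher. Their median log2 ratio was 0.29. All 24 matched genes of the list summed to 10340 and 3038 CPM, and the fall of that sum lay in CYP2E1, CYP2A19 and CYP1A2. CYP2E1 (ENSSSCG00000010780), the ethanol-oxidising P450, was 757-fold lower (562 to 1047) at 5397 CPM in Berkshire and 7.13 CPM in Korean native liver. CYP2A19 (ENSSSCG00000002993), the main pig CYP2A enzyme and one that clears skatole, had 1585 and 0 CPM, with 0 counts in Korean native liver. Against a floor of 3 counts CYP2A19 was 3188-fold lower, with a counting interval from 2592-fold upwards. CYP1A2, which clears caffeine and many aromatic amines, was 23.6-fold lower (19.4 to 29.0) at 415 and 17.6 CPM. Its relative CYP1A1 had 32.8 and 32.5 CPM, and AHR, the sensor that induces both, was 4.15-fold higher (3.71 to 4.66) at 73.2 and 304 CPM. CYP2U1 was the higher P450, 4.23-fold higher (3.50 to 5.16). CYP2D6 and CYB5A, both abundant, had 1004 and 703 CPM and 1015 and 614 CPM. P450, flavin monooxygenase and sulfotransferase genes belong to families of close copies, whose reads the counting may have split or set aside as not unique, so these values are uncertain. Reads without a unique alignment made up 20.8% and 17.1% of the entries in the liver libraries.

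Flavin monooxygenases, alcohol, aldehyde and carbonyl enzymes had 7 of 21 members at least 2-fold higher and 2 at least 4-fold lower, with a median log2 ratio of 0.49. FMO1 was higher, at 2669 and 7589 CPM. FMO5 was lower, at 2351 and 12.9 CPM, and was 182-fold lower (146 to 230.2). Direction thus differed within the flavin monooxygenase family. FMO1 was lower in the Korean native libraries of the other tissues, at 293 and 74.2 CPM in fat and 262 and 33.2 CPM in muscle. AOX1 (aldehyde oxidase) was 27.1-fold lower (24.2 to 30.4) at 1414 and 52.2 CPM. Other members past 2-fold included MAOB (monoamine oxidase B), DHRS7, DHRS4, ALDH1B1 and CBR4, from 2.29-fold to 3.81-fold higher.

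Conjugating enzymes had 3 of 11 members at least 2-fold higher and 2 lower (median log2 0.21). SULT1A3, which the table names as a phenol sulfotransferase, was 77.5-fold lower (35.3 to 212) at 77.0 and 0.994 CPM, while fat and muscle did not show that gap, at 28.7 and 63.2 CPM in fat and 33.7 and 35.1 CPM in muscle. NNMT, which methylates nicotinamide, was 8.74-fold lower (7.98 to 9.60) at 759 and 86.8 CPM, and the related methyltransferase INMT was 3.65-fold higher at 78.4 and 286 CPM. GLYATL2, a glycine acyltransferase, had 0 and 89 counts and was 24.6-fold higher against a floor of 3 counts (interval from 19.6 upwards). Of 24 xenobiotic sensors and transporters AHR was the 1 gene 2-fold higher, 2 genes were at least 2-fold lower, and the median log2 ratio was -0.01.

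**Figure D3:**
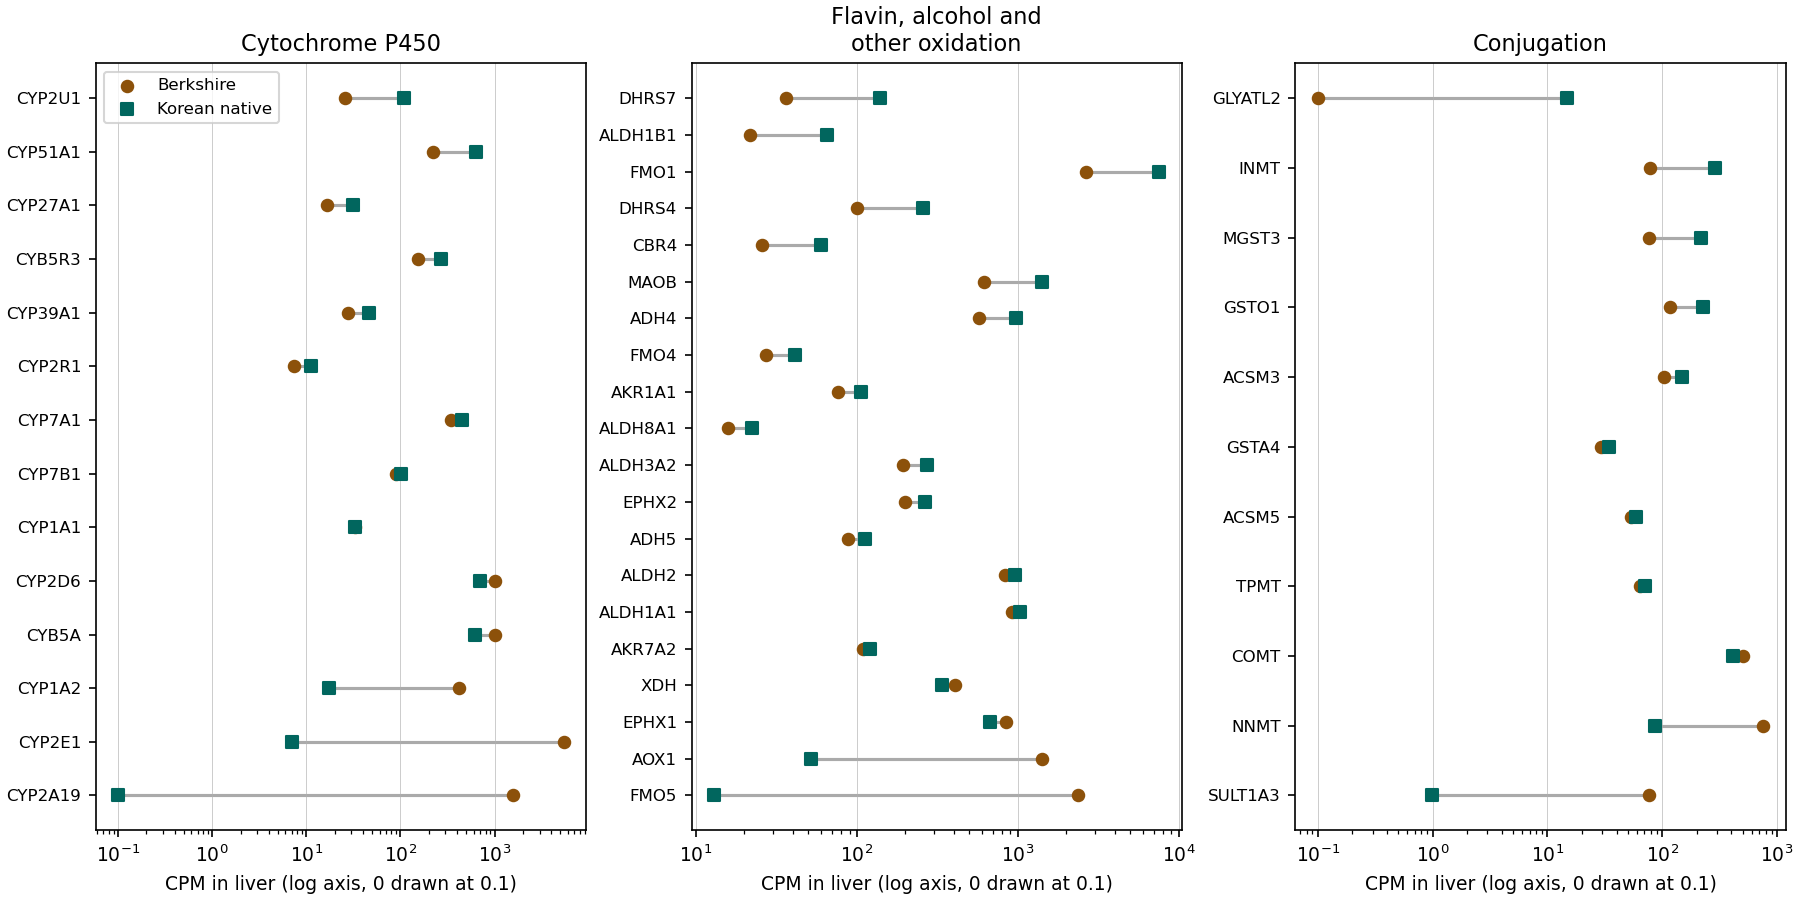
Cytochrome P450 system genes (left), flavin, alcohol and other oxidation genes (middle) and conjugation genes (right), each with its CPM in Berkshire liver (circle) and Korean native liver (square) on a log axis, with 0 counts drawn at 0.1. Genes are ordered by their ratio: several at the top of each panel, such as CYP2U1, DHRS7 and INMT, are higher in the Korean native library, and CYP2A19, CYP2E1, FMO5 and SULT1A3 at the bottom lie far lower.

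In the acute phase and inflammation list most genes were lower, though 10 of 15 stayed within 2-fold. By any amount 14 were lower and 1 was higher, beside 50.2% of all genes higher. At 2-fold 4 were lower and 1 was higher. The median log2 ratio was -0.29, inside the quartiles of all genes at -0.34 and 0.35. CRP (ENSSSCG00000006403), the C-reactive protein that binds microbes and dying cells, was 359.7-fold lower (269 to 493) at 2682 CPM in Berkshire and 7.46 CPM in Korean native liver. MBL2, a mannose-binding lectin that starts the lectin pathway of complement, was 94.5-fold lower (63.8 to 146) at 391 and 4.14 CPM. LBP, which binds bacterial lipopolysaccharide, had 704 and 233 CPM, and STAT3, the transcription factor of the interleukin-6 response, 729.6 and 183 CPM. The member that was 2-fold higher was the chemokine CCL2, at 6.00 and 15.1 CPM. IL6R, a receptor ahead of STAT3, had 134 and 118 CPM. Outside the lists, IL1R1 (an interleukin-1 receptor, 1869 and 413 CPM), IL4R (118 and 29.7 CPM) and the kinase PIM1 (109 and 15.9 CPM) were lower too, and were named after their values were seen.

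Complement and coagulation genes numbered 38, of which 25 were lower and 13 higher by any amount, 5 were at least 2-fold lower and none 2-fold higher, with a median log2 ratio of -0.25. C2 and C4A, which form the C3 convertase of the classical and lectin pathways, had 618 and 176 CPM and 3392 and 1401 CPM. MASP2, the protease that MBL2 carries, had 71.4 and 28.0 CPM, and C4BPA, an inhibitor of that convertase, 560.0 and 195 CPM. C3 itself had 8838 and 4548 CPM. Members of the convertase pathway and its inhibitor were thus lower side by side, while KNG1 (kininogen), PLG (plasminogen) and C9 had 1919 and 3239 CPM, 5598 and 7045 CPM and 1705 and 2248 CPM. In fat the list had a median log2 ratio of 0.88 over 17 genes and in muscle of -1.25 over 14 genes.

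Carriers and apolipoproteins had 3 of 22 members at least 2-fold higher and 2 lower. APOA2, a protein of HDL, had 292 and 944 CPM, and APOC3, which slows clearance of triglyceride-rich lipoproteins, 3434 and 1556 CPM. APOE had 8591 and 5863 CPM and TF (transferrin) 15548 and 16105 CPM. Albumin's relatives differed more than ALB itself, at 176485 and 212897 CPM: AFP (alpha-fetoprotein) had 3.80 and 10.1 CPM, and AFM (afamin, which lies beside AFP and was named after its values were seen) 355 and 1180 CPM.

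Iron and heme genes had 5 of 25 members at least 2-fold higher and 2 lower (median log2 -0.02). TFRC (ENSSSCG00000011848), the receptor that takes up transferrin iron, was 6.26-fold higher (5.66 to 6.92) at 88.6 and 554 CPM. ALAS2, the first enzyme of heme synthesis in red cell precursors, was 6.95-fold higher (5.41 to 9.03) at 14.0 and 97.3 CPM. STEAP3, which reduces endosomal iron, had 85.6 and 175 CPM, TFR2, the iron-sensing receptor of hepatocytes, 361 and 249 CPM, and FTL, the ferritin light chain, 3401 and 5075 CPM. The metallothionein gene that the table names MT3 had 39.0 and 0 CPM, with 0 counts in Korean native liver. Against a floor of 3 counts MT3 was 78.5-fold lower (interval from 63.2 upwards). MT1X, named after its values were seen, was 6.22-fold lower at 1052 and 169 CPM. Metallothioneins are near-identical short genes, so reads may be shared among copies.

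Markers of red cells were higher in the Korean native library, in part. HBB (beta globin) was 8.71-fold higher (8.20 to 9.25) at 233 and 2031 CPM, in a gene family of close copies. Of 12 matched red cell markers 3 passed 10 CPM, HBB and ALAS2 higher and CA2 lower at 60.4 and 26.5 CPM, and the 12 summed to 318 and 2168 CPM. In all, 4 and 3 of the 12 were at 0 counts, among them KLF1 and HBZ in both libraries and GATA1 in Berkshire. GATA1 had 0 and 2 counts, SLC4A1 1 and 5 counts and HBM 7 and 33 counts. The part of red cells or their precursors in the TFRC and ALAS2 differences was not tested. In fat and muscle HBB stood at 109.6 and 177 CPM in fat and 97.2 and 72.7 CPM in muscle, while TFRC had 14.1 and 38.4 CPM in fat and 219 and 461 CPM in muscle.

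The summed levels of other cell type markers differed less. Kupffer cell and macrophage markers (15 matched) summed to 1118 and 867 CPM, with 10 of the 13 that reached 10 CPM lower by any amount. Within them MARCO, a scavenger receptor, was 8.55-fold higher (6.37 to 11.7) at 9.80 and 83.8 CPM, and TIMD4, a receptor for dying cells, was 2.33-fold lower at 58.6 and 25.2 CPM. Endothelial markers summed to 1109 and 901 CPM (11 of 14 lower). Stellate cell and fibroblast markers (24 matched) summed to 3066 and 2466 CPM, with 17 of the 21 that reached 10 CPM lower. In both lists no member that reached 10 CPM was past 2-fold. Bile duct markers (13 matched) summed to 375 and 536 CPM, and the rise of that sum lay in KRT8 and KRT18. By any amount 7 of the 11 that reached 10 CPM were higher and 4 lower, with a median log2 ratio of 0.12. KRT8, KRT18 and PROM1 were at least 2-fold higher at 74.0 and 178 CPM, 55.2 and 123 CPM and 12.4 and 25.2 CPM. SOX9 stood at 18.0 and 9.78 CPM. Lymphocyte markers (16 matched) summed to 179 and 219 CPM and neutrophil markers (8 matched) to 56.4 and 33.8 CPM. The nerve list (7 matched) summed to 282 and 329 CPM. The pancreas and gut list (7 matched) summed to 48.4 and 68.1 CPM, and VIL1, a microvillus protein, was 6.06-fold higher at 3.20 and 19.4 CPM. MUC13 (12.8 and 131 CPM) and CDHR5 (20.8 and 119 CPM), also proteins of epithelial brush borders, were higher as well and were named after their values were seen. The part of these cell types in the differences of other genes was not tested.

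Clock genes had 2 of 14 members at least 2-fold higher and 4 lower, with a median log2 ratio of -0.36, which was 0.26 when 10 CPM was asked of both libraries. BMAL1, the activator of the clock, was 3.92-fold lower (2.21 to 7.36) at 10.4 and 2.65 CPM, and CRY1, a repressor, 3.46-fold lower (2.36 to 5.17) at 21.2 and 6.13 CPM. NOCT, a rhythmic phosphatase, and USP2, a rhythmic deubiquitinase, were 3.47-fold and 2.28-fold higher. The hour at which each liver was taken is not given in the labels used here. Interferon response genes had 4 of 18 members at least 2-fold higher and none lower (median log2 0.47): MX1, an antiviral GTPase, had 57.4 and 151 CPM, USP18 5.40 and 17.7 CPM, IRF7 4.40 and 15.2 CPM and CMPK2 10.4 and 22.0 CPM. USP18 and IRF7 reached 10 CPM only in the Korean native library, so the minimum itself favoured counting them as higher. With 10 CPM asked of both libraries the median was 0.31. Endoplasmic reticulum stress genes leaned lower, 14 of 18 by any amount, with DNAJB9 at 157 and 69.4 CPM as the 1 member past 2-fold, and HSPA5, the main chaperone, at 887 and 615 CPM. In the oxidative stress list GCLC (glutathione synthesis) and PRDX1 were 2.80-fold and 3.20-fold higher, and NQO1 was 2.51-fold lower.

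All 21 nuclear oxidative phosphorylation genes measured were higher by any amount, none by 2-fold, with a median log2 ratio of 0.27. That median was -0.18 in fat and 0.91 in muscle. Over all genes 50.2% were higher by any amount. Of the 13 genes encoded in the mitochondrion 11 were higher, ND2 at 7304 and 15166 CPM and ND6 at 4345 and 9036 CPM past 2-fold, while ND4 had 22083 and 17124 CPM. None of 18 ribosomal protein or 18 proteasome genes was past 2-fold. By position in the liver lobule, genes known in mouse from around the central vein had 3 of 12 members at least 2-fold higher and 2 lower, with a median log2 ratio of 0.58 that turned to -0.16 when genes from 1 CPM were let in. Periportal genes had 3 of 15 at least 2-fold higher and 2 lower, with a median of -0.48. Central vein genes thus went both ways, LECT2 at 206 and 667 CPM and RNF43 at 17.4 and 47.4 CPM beside CYP2E1 and CYP1A2.

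**Figure D4:**
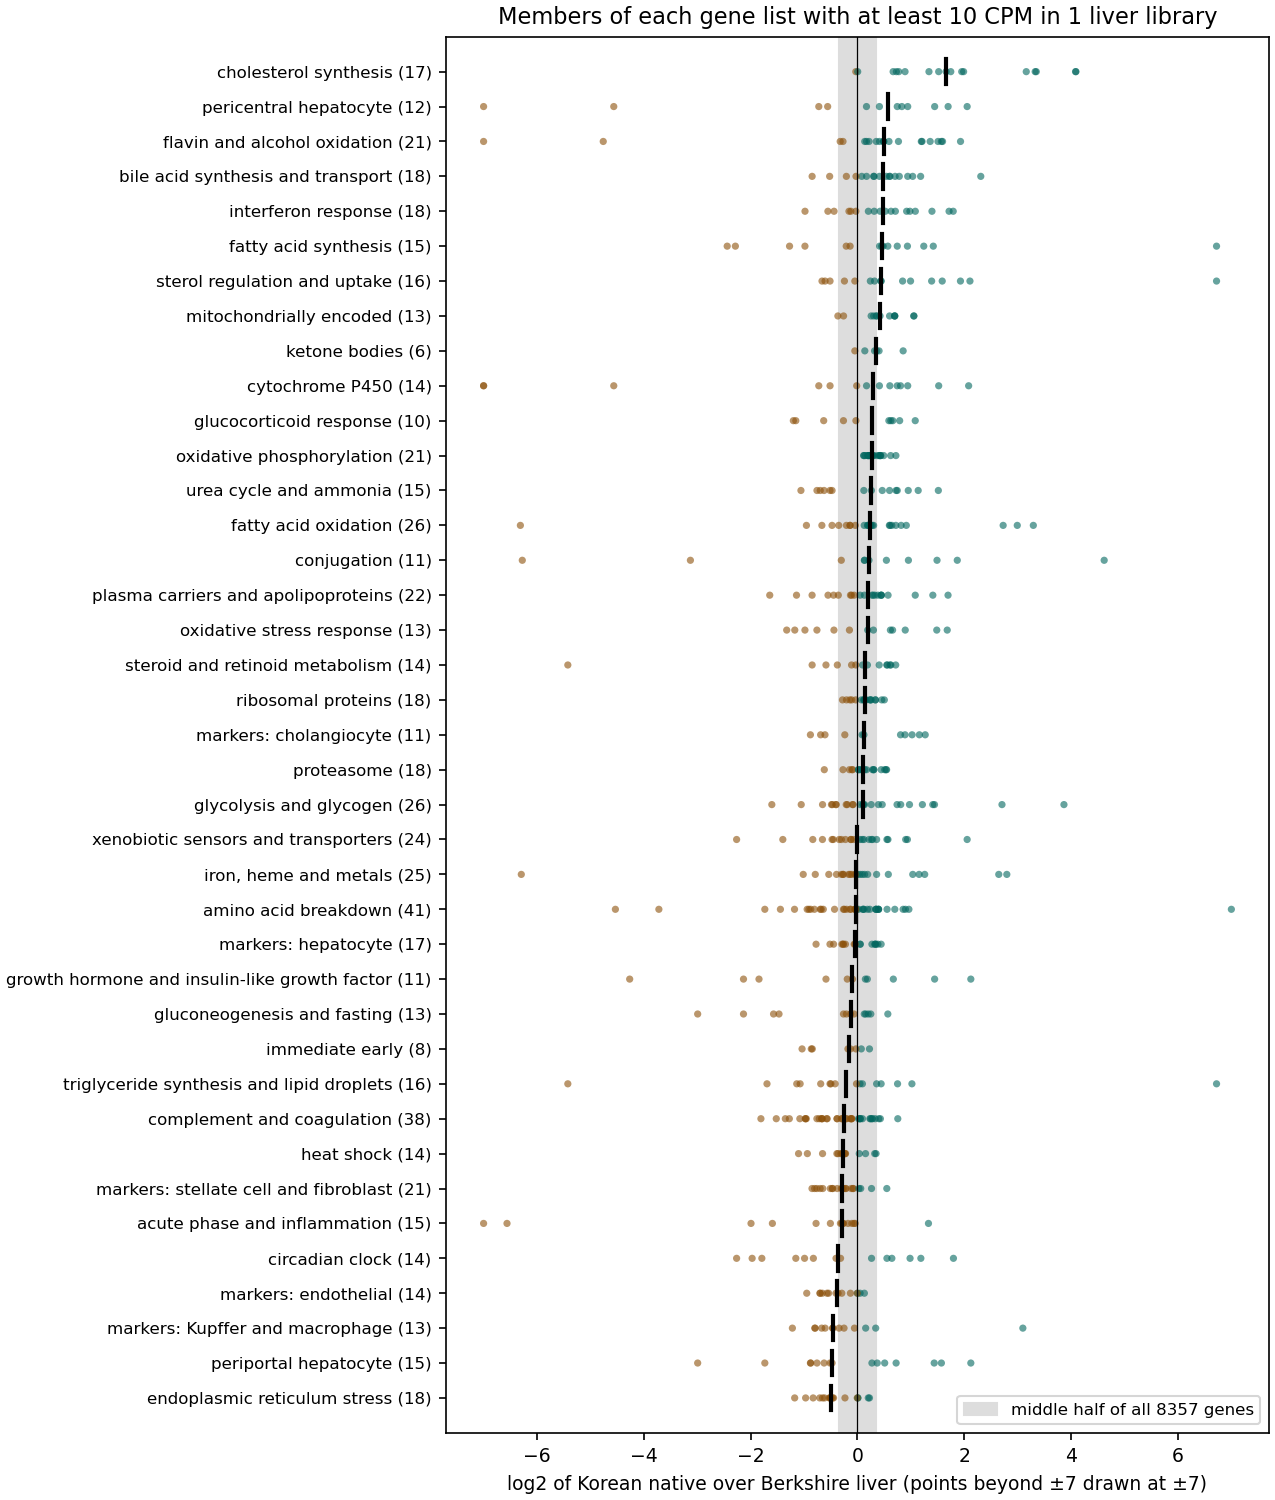
Each point is 1 gene of a list (its number of genes in brackets), placed by the log2 ratio of Korean native over Berkshire liver, with values beyond 7 drawn at 7. Black ticks are list medians, ordered from cholesterol synthesis at 1.66 to endoplasmic reticulum stress at -0.50, and the grey band spans the quartiles of all 8357 genes, -0.34 to 0.35.

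Some genes were read in 1 library and nearly unread in the other. At most 3 counts were found in Berkshire for 10 of the genes past 4-fold and in Korean native for 15, and 0 counts for 7 and 7. With a symbol, MORC1 and ADAD1, both known from the testis in mouse, stood at 0 and 56.5 CPM and 0 and 27.2 CPM. Against a floor of 3 counts they were 94.1-fold (interval from 76.2 upwards) and 45.3-fold higher (from 36.4 upwards). LUZP2 stood at 14.2 and 0 CPM and was 28.6-fold lower against that floor (from 22.6 upwards). PAQR7, a progestin receptor, was 57.5-fold higher (29.0 to 134) at 1.60 and 92.0 CPM, BBS12, a chaperonin-like protein of cilia, 35.8-fold higher (15.1 to 111), and ASB4 23.6-fold higher (8.97 to 88.1). CUX2, a transcription factor with female-biased liver expression in mouse, named after its values were seen, was 10.1-fold higher (8.68 to 11.9) at 34.8 and 353 CPM. The sexes of the pigs are not given in the labels used here, and the sex-linked genes of the list matched no ID. Genes without a symbol made up 45 of the 121 higher and 63 of the 121 lower genes, beside 2251 of all 8357 measured genes. Their share was thus larger among the genes past 4-fold, most of all on the lower side. Among them ENSSSCG00000025801 had 0 and 232 CPM and ENSSSCG00000022808 842 and 0.331 CPM.

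Of the 134 named genes past 4-fold, 124 could be placed by gene order in RefSeq, and 4 pairs were direct neighbours, each pair in the same direction. KYAT1, LRRC8A and PHYHD1, of which LRRC8A was named after its values were seen, lie in a row of 3, at 51.6 and 1.82 CPM, 129 and 27.2 CPM and 62.6 and 1.33 CPM. FADS2 and FADS1 are neighbours on the lower side. MKS1 and LPO, likewise chosen, are neighbours on the higher side, at 5.00 and 24.9 CPM and 2.00 and 25.0 CPM. At 2-fold, 28 of 2186 measured neighbour pairs had both genes past the limit, 21 in the same and 7 in opposite directions. Over all genes 5.89% were at least 2-fold higher and 5.65% lower. The counts of pairs were not set against those of unrelated genes, so no excess among neighbours is shown. The pairs MVK with MMAB, KRT8 with KRT18 and AFP with AFM were among the 21, and SOAT2 with CSAD was among the 7.

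The fat and muscle libraries gave the same genes a second reading from other tissue, with no library in common. Of the 121 genes higher in Korean native liver, 62 had at least 5 CPM in a fat library, and 19 of these (30.6%) were at least 2-fold higher there and 3 (4.84%) lower, beside 5% higher and 3.93% lower over all genes in fat. In muscle 55 were measured, 13 (23.6%) higher and 8 (14.5%) lower, beside 11.2% and 10.7% of all genes. Of the 121 lower genes, 18 of 57 (31.6%) were at least 2-fold lower in fat and 4 (7.02%) higher, and 24 of 53 (45.3%) were lower in muscle and 6 (11.3%) higher. The shares in the same direction lay above those of all genes in both tissues. Those in the opposite direction rested on 3 to 8 genes each and lay closer to the shares of all genes, so nothing is read into them. With genes from 1 CPM in muscle, 18 of the higher genes (20.9%) were higher there and 16 (18.6%) lower. In each case most of the measured genes did not pass 2-fold in the same direction. The labels do not say whether the tissues of a breed came from the same animals.

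**Figure D5:**
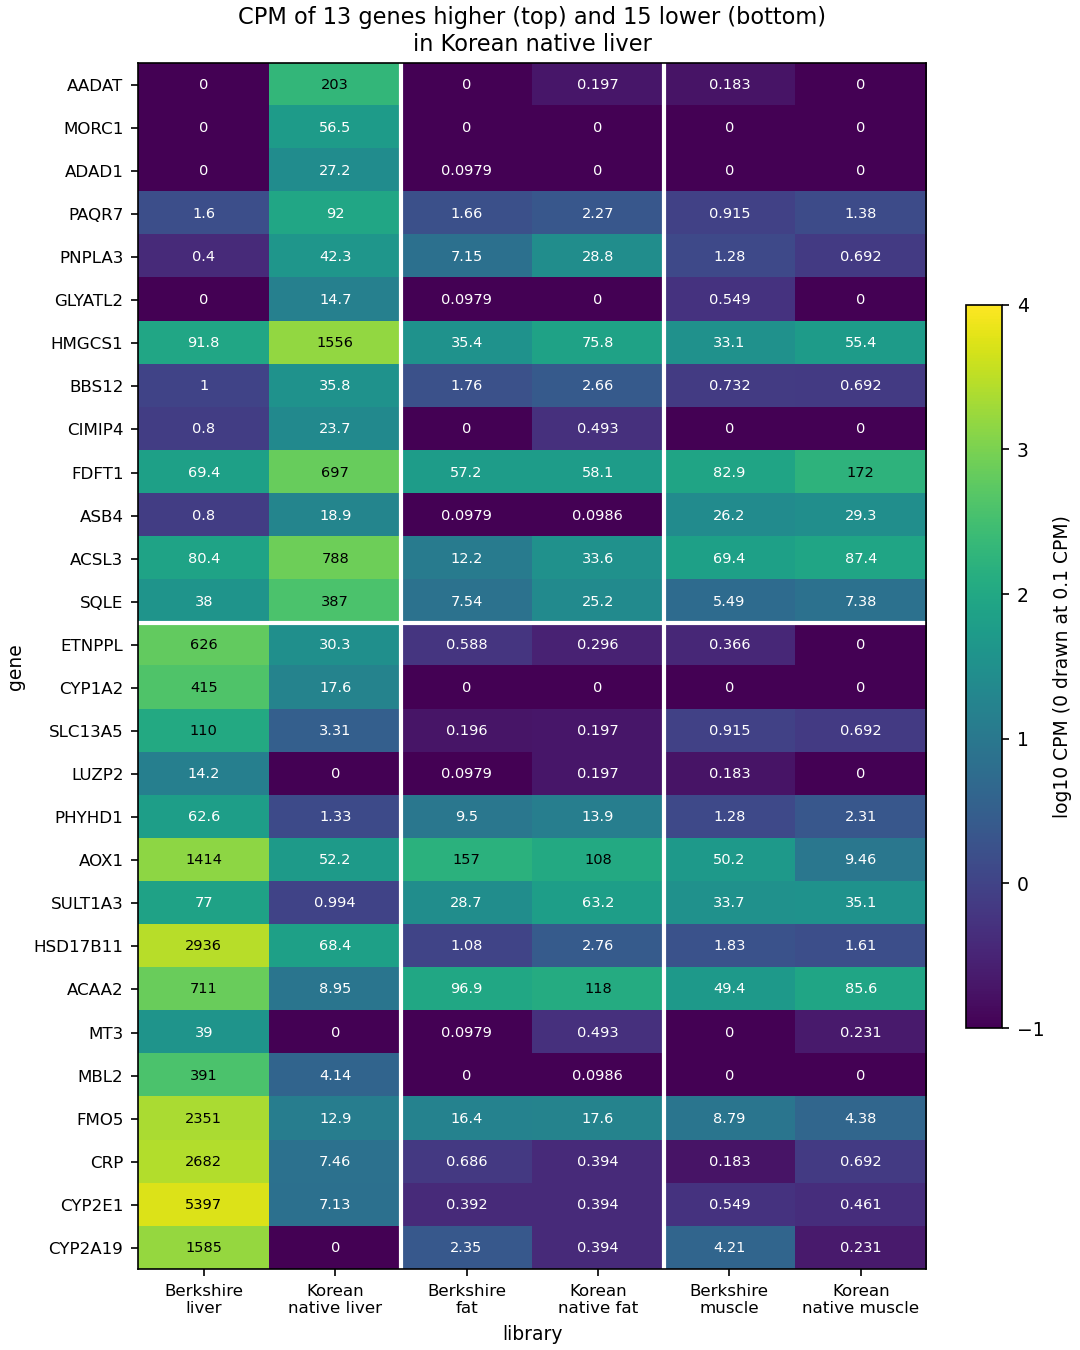
CPM of 13 higher and 15 lower genes whose counting interval lay farthest from equality, in all 6 libraries, coloured by log10 CPM with 0 drawn at 0.1 and the value printed in each cell. The upper 13 genes are brighter in Korean native than in Berkshire liver and the lower 15 the reverse, and in fat and muscle many of them, such as AADAT, CRP and CYP2E1, stand under 1 CPM in both breeds.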

How the data were processed

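Trizol was used to extract RNA from frozen tissue, and each Illumina TruSeq library was made from 1 µg, per the labels' protocols. TopHat, HTSeq 0.5.3p3 and the build Sscrofa10.2 are named in the submitters' processing notes. Raw read counts per Ensembl gene were deposited. No source used here gives the strand setting or annotation release, so overlapping and antisense genes cannot be told apart. The 5 closing entries that name no gene were left out. In the liver libraries reads outside genes made up 45.9% and 47.8% of the entries, and ambiguous reads 0.667% and 0.809%.

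CPM used TMM factors over all 6 libraries (edgeR 4.0.16, R 4.3.3). Intervals are exact 95% intervals for a ratio of 2 Poisson counts. A count of 0 was set to 3 counts in a ratio, which is 0.600 CPM in Berkshire and 0.497 CPM in Korean native liver. PCR reads are not independent molecules, so intervals and floors cover counting error only. Alternatives were DESeq2 1.42.0 size factors, total counts, TMM within liver, other minimum levels and a prior count of 2. Symbols came from a supplied table, which named 11804 of the 25322 IDs, carrying 79.2% and 82.3% of the liver counts, so list members without a match were not analysed here.

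The gene lists were drawn up with earlier results of these data known, and some genes are in several lists. Named genes are the 15 per direction whose interval lies farthest from equality, the 10 per direction with the largest CPM difference, up to 5 members of each list and its members past 2-fold, the most abundant members near equality and the genes nearest 4-fold. Some genes that this rule names are not reported here. Further list members near equality, and other genes, were chosen after their values were seen. RefSeq gene order, from a newer assembly than the files' build, was used for neighbours and no coordinates are given.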

Additional observations from a re-analysis of the deposited data

Results flagged for a closer look

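Among the named genes past 4-fold in liver, 2 were at least 4-fold apart in the opposite direction in muscle. SLC16A5, a carrier of the monocarboxylate family, had 34.0 and 3.65 CPM in liver, a log2 ratio of -3.22, and 7.14 and 77.3 CPM in muscle, a log2 ratio of 3.44. SGK2, a kinase related to the glucocorticoid-induced kinase SGK1, had 11.2 and 70.8 CPM in liver, a log2 ratio of 2.66, and 60 counts in Berkshire and 0 counts in Korean native muscle. Each direction rests on 1 library per breed and tissue, and the difference between the tissues was not tested.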

How the results depend on the processing

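The counts past 4-fold depended on the minimum level and, by less, on the scaling. The 121 higher and 121 lower genes became 312 and 331 from 1 CPM, 372 and 366 without a minimum, and 53 and 45 with 10 CPM asked of both libraries. Requiring the whole counting interval past 4-fold left 76 higher, and 85 lower. With total counts 101 genes were higher and 120 lower, with liver TMM 109 and 114, and with DESeq2 size factors 119 and 122. Other scalings moved the median gene by -0.05 at most, and reversed none of the named genes recomputed.

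List medians moved as follows. With total counts they were -0.51 for triglyceride and lipid droplet genes (-0.22 in the report) and -0.34 for acute phase (-0.29). Plasma carriers stood at 0.081, mitochondrially encoded genes at 0.37 (0.42 with the main scaling) and hepatocyte markers at -0.092 (-0.04). The plasma carriers stood at 0.12 with liver TMM and at 0.12 with DESeq2 size factors (0.20 in the report). From 1 CPM the median was -0.029 for glucocorticoid response (0.28 from 10 CPM) and 0.020 for oxidative stress (0.19 from 10 CPM). It was -0.16 for central vein genes, which reversed from 0.58. With 10 CPM in both libraries the clock median was 0.26, in place of -0.36. At 1 CPM in the other tissue, 7 of the lower genes were higher in fat and 16 of the higher genes lower in muscle (18 were higher). In the other 223 combinations of a list and a setting the median moved by no more than the members' typical counting interval allows. Among them the cytochrome P450 median went from 0.29 to 0.12 with total counts and 0.16 with liver TMM, the triglyceride median to -0.47 with liver TMM, -0.42 with 10 CPM in both libraries and -0.018 from 1 CPM, and the interferon median from 0.47 to 0.31 under either other minimum. The causes were not tested.

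Libraries could not be left out, since each group has 1. No paired analysis was possible because each group holds 1 library and the labels give no replicate numbers.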
